A study of Mus musculus with 12 samples.

Results

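The genes described here encode the 5 intermediate filament proteins of peripheral neurons (Nefl, Nefm, Nefh, Ina and Prph) and 3 cytosolic calcium-binding proteins (Calb1, Calb2 and Pvalb). These 3 are known as markers of subsets of mostly large sensory neurons. All 8 genes were chosen by name from a table of 51341 genes. Each of the 8 names matched 1 row, and all 8 passed the filter of at least 1 FPKM in at least 3 mice, as did 14203 genes in all. The unit is FPKM (fragments per kilobase of transcript, scaled to sequencing depth), which the header does not name and which was inferred from the values.

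RNA was sequenced from the trigeminal ganglia, which hold the cell bodies of the sensory neurons of the face and meninges, of 12 CD1 mice. Of these, 6 were labelled responders to PACAP, a neuropeptide, and 6 non-responders. Each group held 3 males and 3 females of the same outbred strain, and no transgene or other allele is given. The response named in the series title is light aversion. The sources used here give neither age, dose nor the time between PACAP and dissection.

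Neurofilaments are built from a light (Nefl), a medium (Nefm) and a heavy (Nefh) chain, joined by alpha-internexin (Ina) or, in peripheral nerves, by peripherin (Prph). They fill thick myelinated axons and set their calibre, whereas peripherin is known as a marker of small unmyelinated sensory neurons. Calbindin (Calb1), calretinin (Calb2) and parvalbumin (Pvalb) buffer calcium through EF-hand loops, and in sensory ganglia they label subsets of mostly large neurons, while parvalbumin is also a major protein of fast skeletal muscle fibres.

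The filament genes descend from 1 family, and the likeness of their coding sequences bears on whether reads can be told apart. Coding sequences of GENCODE M21 transcripts on GRCm38 were compared over aligned bases only, with gaps left out. Identity between 2 filament genes lay between 65.8% (Nefl and Prph) and 72.4% (Nefh and Ina). The Nefh and Ina pair aligned over 1470 bases, where the Nefh coding sequence holds 3270.

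For the calcium-binding genes, the last loop that matched the EF-hand pattern given below is shown, 5′ to 3′ from the same transcripts. EF-hand loops are the parts that bind calcium. Capitals mark the codons of loop positions 1, 6 and 12, which hold the first acidic residue, the central glycine and the last acidic residue of the motif.
Calb1: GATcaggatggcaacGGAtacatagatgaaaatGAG
Calb2: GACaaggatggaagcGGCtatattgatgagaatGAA
Pvalb: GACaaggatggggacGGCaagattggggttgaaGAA
A search of the translated coding sequences for the loop pattern (aspartate at position 1, aspartate, asparagine or serine at 3, glycine at 6 and glutamate at 12) found 4 loops in Calb1, 5 in Calb2 and 2 in Pvalb. Calb1 and Calb2 were 65.9% identical over 778 aligned coding bases.

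Nefl (ENSMUSG00000022055) lies on chromosome 14 from 68083863 to 68089095 on the plus strand of GRCm38, and Nefm (ENSMUSG00000022054) on the same chromosome from 68082590 to 68124846 on the minus strand. Their exons overlap. The last exon of the longer Nefm transcript, Nefm-202, runs over the first exon of Nefl at chr14:68083863-68084970, a stretch of 1108 bases that holds 61.9% of the Nefl coding sequence. The sources used here do not say whether counting was stranded, so reads from that stretch may have been shared between the Nefl and Nefm rows.

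Nefh (ENSMUSG00000020396) lies on chromosome 11 from 4938754 to 4948064, minus strand, and Prph (ENSMUSG00000023484) on chromosome 15 from 99055174 to 99058978, plus strand. Ina (ENSMUSG00000034336), on chromosome 19 from 47014698 to 47025327, plus strand, shares 456 exonic bases with Nt5c2 on the opposite strand. Calb1 (ENSMUSG00000028222) is on chromosome 4 from 15881264 to 15908064, plus strand. Calb2 (ENSMUSG00000003657) is on chromosome 8 from 110137502 to 110168210 and Pvalb (ENSMUSG00000005716) on chromosome 15 from 78191114 to 78206400, both on the minus strand. Apart from these 2 antisense overlaps, no transcript of another gene matched a member at 90% identity or more over at least 200 bases.

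The libraries held between 286388 and 358590 summed FPKM and between 12648 and 13994 genes at 1 FPKM or more. Steps in the values of single-exon genes implied between 17400000 and 38800000 fragments per mouse. General neuronal genes were present in every library, with a summed level of 1728 to 3642 FPKM over 18 genes in responders and 1908 to 2781 FPKM in non-responders, and none of them was at 0. Responder 1 stood apart in pituitary genes, where Gh alone made up 17.7% of the summed FPKM, and responder 3 in genes of inhibitory neurons of the brain. Non-responders 3 and 4 had the highest levels of skeletal muscle genes. The first number of each sample's description took 7 values, each found in 1 group only, so number and response cannot be told apart.

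The filament genes were among the most abundant transcripts of the ganglion. Nefl ranked between 6th and 28th of all genes of a library, Nefm between 13th and 32nd, Nefh between 29th and 73rd and Prph between 33rd and 96th. In median FPKM over the 12 mice, Nefl stood at 1515, Nefm at 1267, Nefh at 586 and Prph at 559. Nefl exceeded Nefm, and Nefm exceeded Nefh, in 12 of 12 mice. Nefh exceeded Prph in 11 of 12 mice, by less than the spread between mice. The 5 filament genes together took between 0.662% and 1.54% of the summed FPKM in responders and between 0.820% and 1.48% in non-responders.

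The calcium-binding genes and Ina were far lower. The median was 57.1 FPKM for Pvalb, 52.4 FPKM for Calb2, 22.4 FPKM for Calb1 and 5.14 FPKM for Ina. Pvalb and Calb2 did not keep an order, since Pvalb was the higher of the pair in 6 of 12 mice. Calb2 exceeded Calb1 in 12 of 12 mice, and Calb1 exceeded Ina in 11 of 12, responder 3 being the exception.

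**Figure D1:**
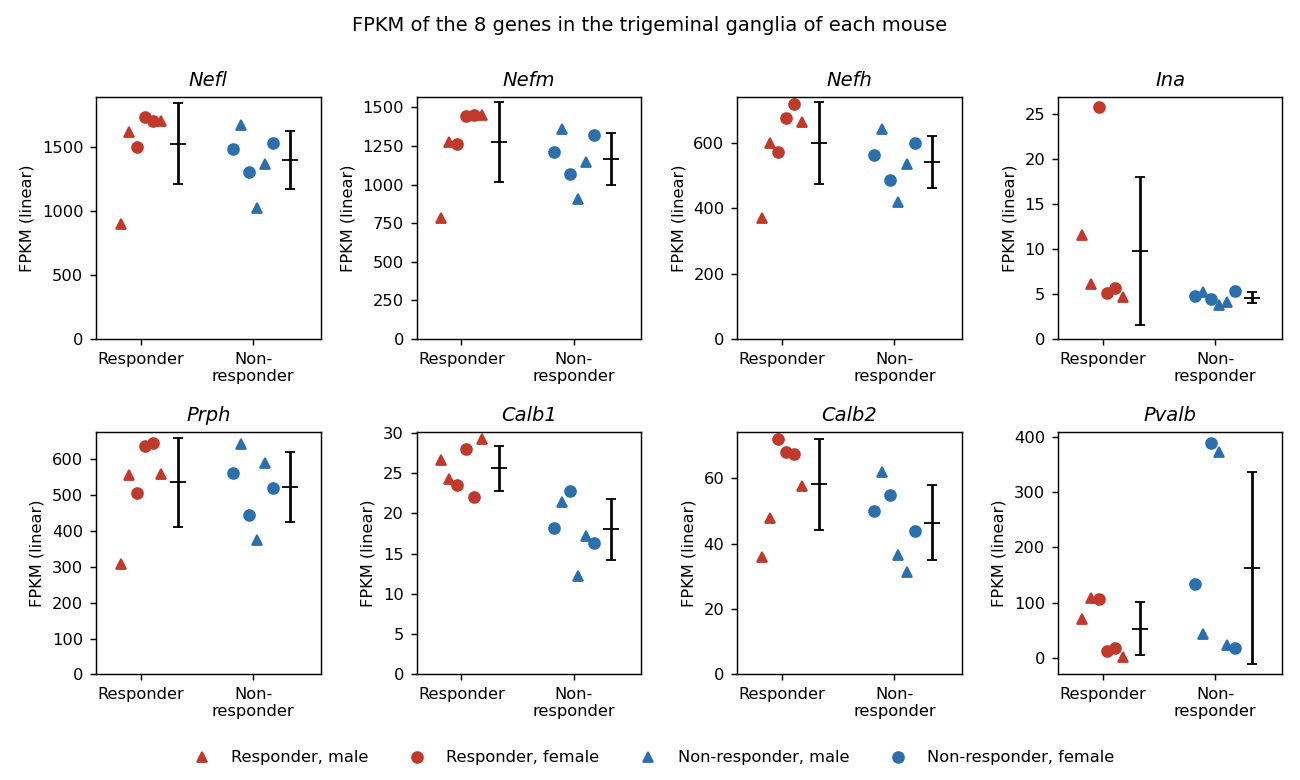
FPKM of each gene in the trigeminal ganglia of 6 responders (red, left) and 6 non-responders (blue, right), on linear axes, with triangles for males and circles for females; black marks give the mean and SD of each group. The groups overlap in every panel, Calb1 overlaps only through responder 5 and non-responder 3, Ina is high in responders 1 and 3, and Pvalb spans the widest range.

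The comparison of responders with non-responders asked whether transcripts of these neuronal proteins differ with the response. None of the 8 genes passed the test: by limma on log2(FPKM + 1), fitted over all 14203 genes with sex as a covariate, 0 of 8 had an adjusted p under 0.05, against 0.0211% of all genes tested. Of the 8, 7 had a higher fitted mean in responders, where 50.7% of all genes did, and their median log2 fold change was 0.12 against 0.00 over all genes. At an unadjusted p under 0.05 there was 1 gene, Calb1, higher in responders, where 3.23% of all genes tested were higher at that level. The values of responders and non-responders overlapped for all 8 genes, and 0.549% of all genes had groups without overlap. Each mouse was a separate library of whole ganglia, in which fewer cells of a type and less RNA per cell cannot be told apart.

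The light chain gene Nefl had a lowest, median and highest value of 898, 1659 and 1734 FPKM in responders, against 1020.5, 1428 and 1674 FPKM in non-responders. The mean was 1526 ± 319 FPKM in responders and 1397 ± 225 FPKM in non-responders (SD, n = 6 per group). Responder 1 was the lowest of all mice, and 3 responders lay above every non-responder. The log2 fold change was 0.11 (95% interval -0.26 to 0.48, limma adjusted p = 0.891). It was 0.25 without responder 1 and 0.04 without non-responder 4.

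The medium chain gene Nefm, whose protein carries a long phosphorylated tail, ran parallel to it. Its lowest, median and highest values were 785, 1358 and 1449.6 FPKM in responders and 906, 1179.5 and 1363 FPKM in non-responders, and again responder 1 was the lowest mouse. The log2 fold change was 0.11 (95% interval -0.23 to 0.45, limma adjusted p = 0.880). For the heavy chain gene Nefh, the corresponding values were 370.5, 631 and 719 FPKM in responders and 421, 549.8 and 645 FPKM in non-responders. Its mean of 600.1 ± 124 FPKM in responders, against 542 ± 80.5 FPKM in non-responders (SD, n = 6 per group), gave a log2 fold change of 0.13 (95% interval -0.22 to 0.48, limma adjusted p = 0.859).

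Peripherin differed least between the groups. Prph had a lowest, median and highest value of 308, 559 and 645 FPKM in responders and of 374, 542 and 641 FPKM in non-responders, so that the groups covered nearly the same range. The mean was 535 ± 123 FPKM in responders and 522 ± 97.98 FPKM in non-responders (SD, n = 6 per group), with a log2 fold change of 0.02 (95% interval -0.40 to 0.43, limma adjusted p = 0.985). The intervals of these 4 genes leave out a change in either direction of more than 0.48 on the log2 scale.

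Within a mouse, the filament genes kept close proportions, which do not depend on how libraries are scaled. The Nefm to Nefl ratio of FPKM was 0.839 ± 0.0286 in responders and 0.839 ± 0.0307 in non-responders (SD, n = 6 per group; exact permutation test over 924 splits, 2-sided, p = 0.981). The Nefh to Nefl ratio was 0.394 ± 0.0190 in responders and 0.389 ± 0.0140 in non-responders (exact permutation p = 0.610, adjusted over 4 ratios 0.814). The coefficient of variation over all 12 mice was 3.37% and 4.13% for these ratios, against 18.6% for the Nefl level itself. The Nefm ratio has the limit that both rows may hold reads of the shared 1108 bases.

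The Prph to Nefl ratio is not taken here as a measure of small against large neurons. Across the mice, Nefl had r = 0.92 with small-neuron genes and 0.82 with large-neuron genes, and 0.61 and 0.36 without responder 1 and non-responder 4. The ratio lay between 0.329 and 0.378 in responders and between 0.341 and 0.430 in non-responders. Its means were 0.350 ± 0.0189 and 0.373 ± 0.0329 (responders and non-responders, SD, n = 6 per group). This difference was within the spread between mice (exact permutation p = 0.149, adjusted over the 4 ratios 0.597). The 3 lowest and the 3 highest ratios came from mice of either group.

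**Figure D2:**
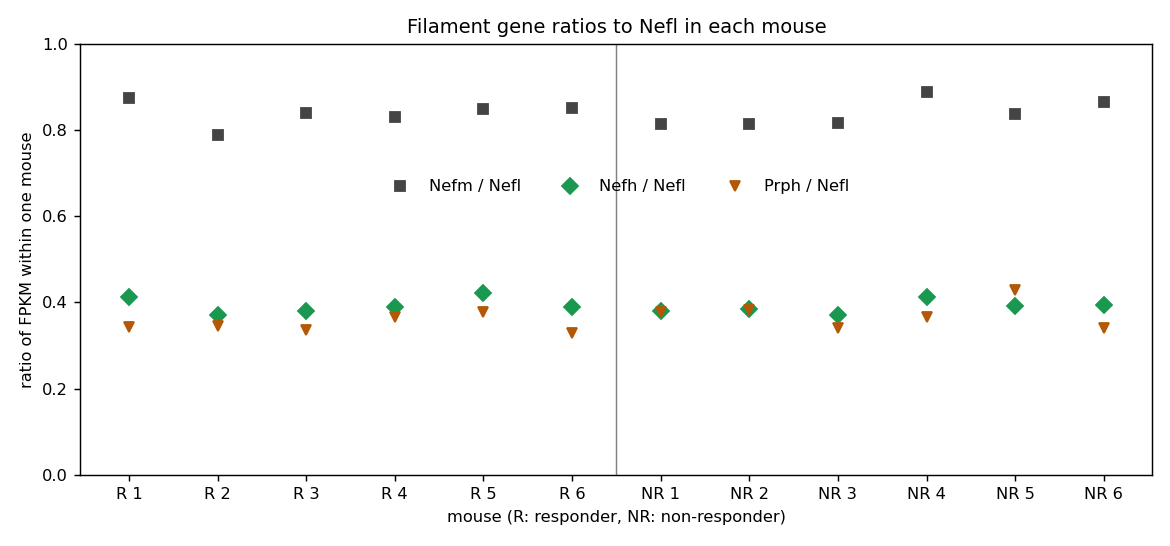
Ratio of FPKM of Nefm, Nefh and Prph to Nefl within each of the 6 responders (R, left of the line) and 6 non-responders (NR, right), on a linear axis from 0. Nefm stays between 0.789 and 0.888 and Nefh between 0.371 and 0.421 in all 12 mice, and Prph is highest in non-responder 5 at 0.430.

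Ina, which encodes alpha-internexin, a filament protein of developing and central neurons that is scarce in adult sensory neurons, was low in all but 2 mice. Its lowest, median and highest values were 4.65, 5.89 and 25.7 FPKM in responders, against 3.77, 4.61 and 5.34 FPKM in non-responders. Responder 3 was at 25.7 FPKM and responder 1 at 11.6 FPKM, and the other 10 mice lay between 3.77 and 6.11 FPKM. The mean was 9.81 ± 8.21 FPKM in responders and 4.61 ± 0.610 FPKM in non-responders (SD, n = 6 per group), and the log2 fold change of 0.70 (95% interval -0.04 to 1.44) did not pass the test (limma adjusted p = 0.680).

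That value rested on 2 libraries. Without responder 3 the log2 fold change was 0.38 (limma adjusted p = 0.704), and without responders 1 and 3 it was 0.19 (adjusted p = 0.576). The Ina to Nefl ratio, at 0.00714 ± 0.00626 in responders and 0.00332 ± 0.000254 in non-responders (SD, n = 6 per group), gave a log2 difference of 0.68 (exact permutation p = 0.338, adjusted over the 4 ratios 0.675), which turned to -0.06 without these mice.

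Genes of other tissues were high in the same 2 libraries. In responder 3, Slc6a5 and Slc32a1, transporters of glycinergic and of inhibitory neurons, stood at 5.51 and 5.48 FPKM, and Gad2, a GABA-synthesising enzyme, at 2.29 FPKM. In the other 11 mice Slc6a5 was listed at 0, Slc32a1 did not exceed 0.284 FPKM and Gad2 did not exceed 0.502 FPKM. Of 10 genes of brain neurons, 7 reached 1 FPKM in responder 3 and 2 in every other mouse, and their summed level was 11.7 to 64.5 FPKM in responders and 14.9 to 26.6 FPKM in non-responders. The highest sum was that of responder 5, where Ina stood at 5.66 FPKM.

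In responder 1, the pituitary transcription factor genes Pou1f1 and Lhx3 stood at 31.5 and 21.0 FPKM, against at most 5.27 and 3.95 FPKM elsewhere, both in responder 2. The 10 pituitary genes summed to between 359 and 77956 FPKM in responders and between 27.2 and 1053 FPKM in non-responders, and Pou1f1 was at 0 in 7 mice. Responders 1, 2, 3 and 5 exceeded every non-responder in this sum. All 10 genes had a higher mean in responders (median log2 fold change 2.48), 9 of them at an unadjusted p under 0.05, where 3.23% of all genes were, and 0 passed the adjusted limma test. The part of these tissues in the Ina values was not tested.

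**Figure D3:**
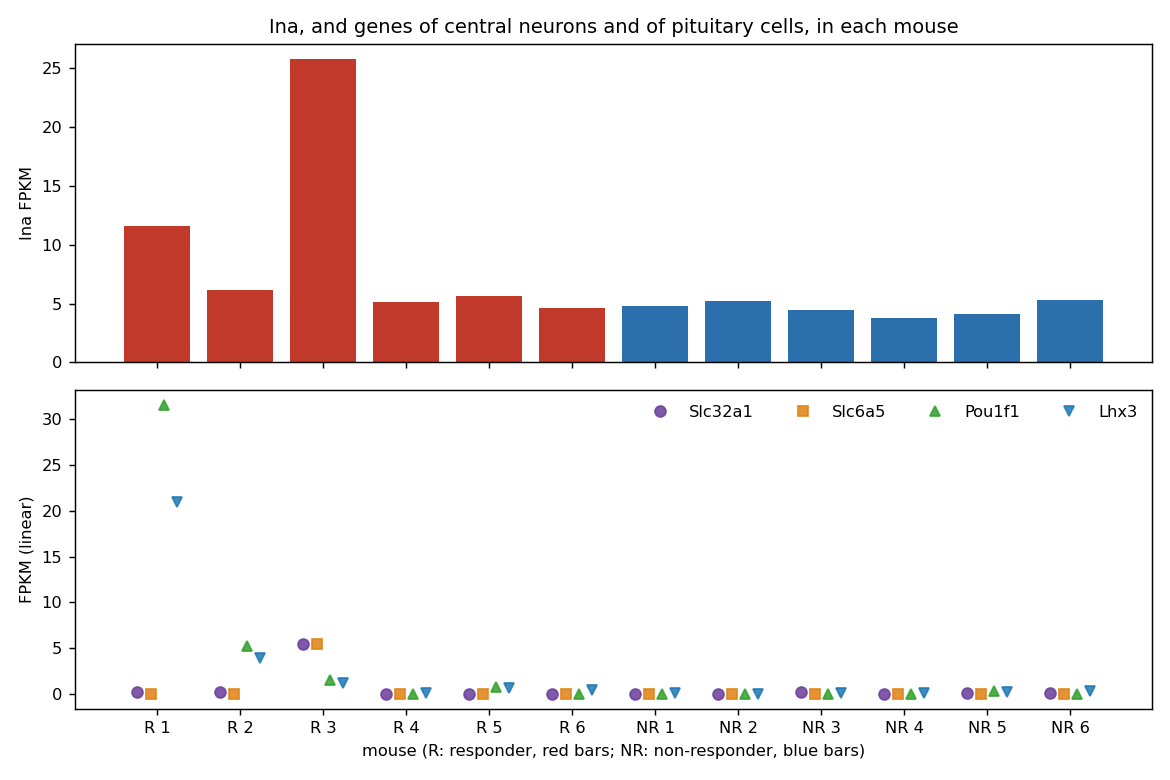
Top, Ina FPKM in each of 6 responders (R, red bars) and 6 non-responders (NR, blue bars), axis from 0; bottom, FPKM of 2 genes of inhibitory brain neurons (Slc32a1, Slc6a5) and 2 of pituitary cells (Pou1f1, Lhx3) in the same mice. Ina is highest in responder 3, where Slc32a1 and Slc6a5 reach 5.48 and 5.51, and next highest in responder 1, where Pou1f1 reaches 31.5.

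Calbindin was the gene of the set in which the groups were best separated. Calb1 had a lowest, median and highest value of 22.04, 25.5 and 29.2 FPKM in responders, against 12.2, 17.7 and 22.7 FPKM in non-responders. Of the 6 responders, 5 lay above every non-responder, as did at least 5 responders for 1.27% of all genes tested, and the overlap came from responder 5 at 22.04 FPKM and non-responder 3 at 22.7 FPKM. The mean of 25.6 ± 2.78 FPKM in responders, against 18.02 ± 3.77 FPKM in non-responders (SD, n = 6 per group), gave a log2 fold change of 0.50 (SE 0.14, 95% interval 0.19 to 0.81). It did not pass the adjustment over 14203 genes (limma adjusted p = 0.445), among which it was 135th by p.

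Calb1 was higher in responders of both sexes. In males it stood at 26.7 ± 2.48 FPKM in responders and 16.9 ± 4.60 FPKM in non-responders (SD, n = 3 per group), without overlap (log2 fold change 0.66, limma adjusted p = 0.700). In 4.87% of all genes tested the 3 male responders likewise lay above the 3 male non-responders, and 0.0141% passed the adjusted test in males. In females it stood at 24.5 ± 3.06 FPKM in responders and 19.1 ± 3.29 FPKM in non-responders, with overlap (0.35, limma adjusted p = 0.784), where 0.00704% of all genes passed. The difference between the sexes in this effect did not pass the test (-0.31, 95% interval -0.93 to 0.31, limma adjusted p = 0.840).

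With each mouse centred on the mean log2 level of 18 general neuronal genes, the Calb1 log2 fold change was 0.35, where the median of all genes was -0.15 (limma adjusted p = 0.520), and the unadjusted p was no longer under 0.05. The log2 fold change lay between 0.35 and 0.58 over 23 alternatives, with adjusted p between 0.207 and 0.742. Averaging mice by the first number of the description, so that 7 values remain, gave 0.43 (limma adjusted p = 0.701).

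Genes of myelinating Schwann cells had mostly lower values in responders. Their summed level over 13 genes was 2592 to 4925 FPKM in responders and 4722 to 6840 FPKM in non-responders. Of 12 tested, 11 had a lower mean in responders, where 6995 of all 14203 genes did. Of the 11, 7 had an unadjusted p under 0.05, where 4.17% of all genes were lower at that level, and 0 passed the adjusted test. The part of Schwann cell content in the Calb1 values was not tested. Calb1 itself showed no correlation with the Schwann cell genes past the adjusted threshold over the 12 mice (r = -0.45, rho = -0.54, permutation p adjusted over 64 relations 0.269 and 0.218), and r was -0.13 within responders and 0.08 within non-responders.

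Calretinin showed a smaller difference. Calb2 had a lowest, median and highest value of 35.9, 62.5 and 71.99 FPKM in responders, against 31.4, 46.9 and 62.0 FPKM in non-responders, and 3 responders lay above every non-responder. The mean was 58.1 ± 13.97 FPKM in responders and 46.4 ± 11.5 FPKM in non-responders (SD, n = 6 per group), with a log2 fold change of 0.32 (95% interval -0.06 to 0.69, limma adjusted p = 0.709). Centring on the general neuronal genes gave 0.16 (limma adjusted p = 0.640), and leaving out non-responder 2 gave 0.46 (0.322). All 3 female responders were within 67.5 to 71.99 FPKM, above the 3 female non-responders at 43.8 to 54.8 FPKM (log2 fold change 0.48, limma adjusted p = 0.771), an order of all female responders above all female non-responders that 10.3% of all genes showed. Male responders at 35.9 to 57.5 FPKM overlapped male non-responders at 31.4 to 62.0 FPKM, and the difference in effect between the sexes was 0.32 (95% interval -0.43 to 1.08, limma adjusted p = 0.855).

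Calb2 was also the gene of the set with the lowest p between the sexes. It averaged 59.3 ± 11.4 FPKM in females and 45.2 ± 12.6 FPKM in males (SD, n = 6 per sex), a log2 fold change of 0.41 (limma adjusted p = 0.864). Of the 8 genes 0 passed the adjusted test between the sexes, where 0.0563% of all genes did, and Calb2 alone had an unadjusted p under 0.05, higher in females, where 2.01% of all genes were higher at that level. That p was no longer under 0.05 in 8 of 12 fits that left out 1 mouse, nor with centring on the general neuronal genes, where the log2 fold change was 0.22. For the response in females against that in males, 0 of the 8 genes and 0% of all genes passed, and 0 of the 8 had an unadjusted p under 0.05 by limma.

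Parvalbumin varied most between mice. Pvalb had a lowest, median and highest value of 1.96, 44.7 and 108 FPKM in responders, against 17.2, 88.9 and 389 FPKM in non-responders, a span of 198-fold over the 12 mice. Non-responders 3 and 4 were at 389 and 373 FPKM, non-responder 1 at 134 FPKM, and every other mouse at 108 FPKM or less. The mean was 53.0 ± 48.3 FPKM in responders and 163 ± 174 FPKM in non-responders (SD, n = 6 per group), and the log2 fold change was -1.54 with an interval from -3.94 to 0.86 (limma adjusted p = 0.766). Without responder 6 it was -0.83 (limma adjusted p = 0.841).

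Its order over mice was close to that of skeletal muscle genes. The 16 muscle genes summed to between 11.8 and 497 FPKM in responders (median 83.9) and between 38.6 and 2258 FPKM in non-responders (median 303). All 14 tested had a lower mean in responders, where 6995 of all 14203 genes did. The Pvalb level on the log2 scale had r = 0.84 and rho = 0.85 with the mean log2 level of those 14 genes (n = 12 mice, permutation p = 0.00045 and 0.00084, adjusted over 64 relations 0.0032 and 0.0134). Within groups r was 0.65 in responders and 0.97 in non-responders, and without non-responders 3 and 4 it was 0.70. The gene of fast muscle myosin, Myh4, was at 0 in responders 4, 5 and 6 and in non-responders 5 and 6, the mice with the 5 lowest Pvalb values, and reached 242 and 231 FPKM in non-responders 3 and 4. The fast-fibre calcium pump gene Atp2a1, in contrast, was listed at 0 in 11 mice. An exact 0 in this table can be a failed estimate, for Myh4 as well as for Atp2a1. The part of muscle RNA in the Pvalb values was not tested.

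**Figure D4:**
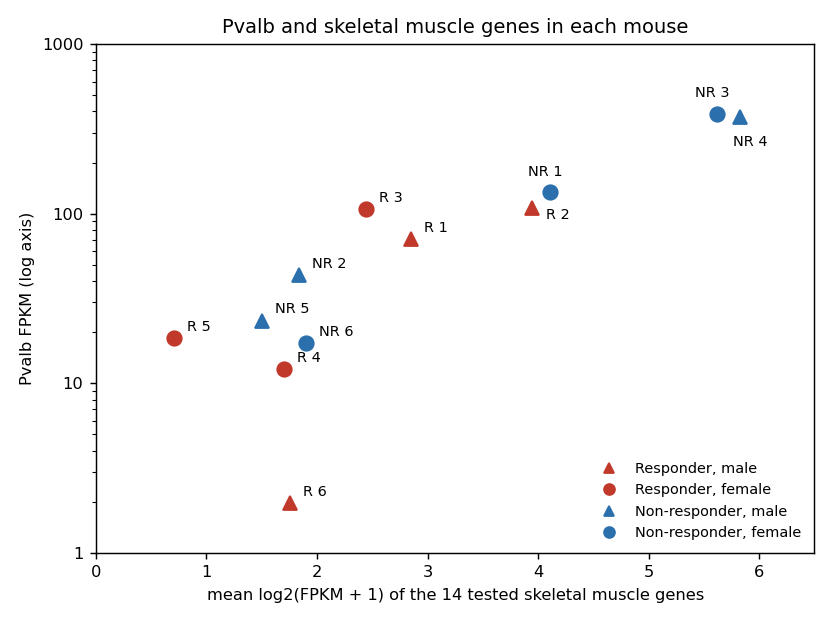
Pvalb FPKM on a log axis against the mean log2(FPKM + 1) of 14 skeletal muscle genes in each of 6 responders (R, red) and 6 non-responders (NR, blue), with triangles for males and circles for females. Non-responders 3 and 4 lie at the upper right, at 389 and 373, and responder 6 lies lowest at 1.96.

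Between mice, the filament genes other than Ina moved together. Over 28 pairs of the 8 genes, 9 passed a permutation test of Pearson's r adjusted over the pairs, all of them positive. By Spearman's rho 11 passed, 8 positive and 3 negative. The negative ones set Pvalb against Nefl, Nefm and Nefh (rho = -0.69, -0.75 and -0.72, permutation p adjusted over the pairs 0.0433, 0.0321 and 0.0371), and their r of -0.55, -0.62 and -0.63 did not pass (0.142, 0.0783 and 0.0783). The 6 pairs among Nefl, Nefm, Nefh and Prph had r between 0.93 and 0.99 and rho between 0.73 and 0.99 (n = 12 mice, permutation p of r adjusted over the pairs at most 0.000793). Within responders their r was between 0.98 and 0.99, and within non-responders between 0.875 and 0.995. Without responder 1 and non-responder 4, the mice with the lowest filament levels, r among the 3 neurofilament chains was between 0.96 and 0.98, and r of Prph with these chains was between 0.69 and 0.78. The other 3 pairs joined Calb2 with Nefl, Nefm and Nefh (r = 0.70, 0.70 and 0.69, rho = 0.69, 0.64 and 0.68, permutation p of r adjusted over the pairs 0.0347 each). By rho the pair with Nefm did not pass (permutation p adjusted 0.0648), and r of the 3 pairs was between 0.50 and 0.55 without responder 1 and non-responder 4. With each mouse centred on the general neuronal genes, the 3 Calb2 pairs were no longer past the threshold (r between 0.05 and 0.12). Ina then had negative correlations past it with Nefl, Nefm, Nefh and Prph (r = -0.72, -0.73, -0.81 and -0.87). Before centring, r of Ina with these genes was between -0.50 and -0.45 within responders and between 0.65 and 0.93 within non-responders. The part of responders 1 and 3, where Ina was high, in the centred correlations was not tested.

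Peripherin followed the genes of small neurons most closely. Prph had r = 0.98 and rho = 0.97 with the mean log2 level of 13 small-neuron genes (n = 12 mice, permutation p = 1e-05, the smallest that 100000 resamples can give, adjusted over 64 relations 0.00064). This was 0.98 within responders, 0.99 within non-responders and 0.91 without responder 1 and non-responder 4. With 16 large-neuron genes its r was 0.74 (permutation p of r adjusted 0.0390), and 0.10 without those mice. The rho of 0.34 did not pass (permutation p adjusted 0.491). Nefl, Nefm and Nefh had r between 0.91 and 0.92 with the small-neuron genes (rho 0.74 to 0.76, permutation p of r adjusted at most 0.00302), and between 0.58 and 0.71 without the same mice. With the 18 general neuronal genes their r was between 0.89 and 0.91 (rho 0.80 to 0.88, permutation p of r adjusted at most 0.00179), and between 0.75 and 0.78 without those mice. Their r with the large-neuron genes was between 0.82 and 0.85 (rho 0.63 to 0.69, permutation p of r adjusted at most 0.0124). By rho none of Nefl, Nefm and Nefh passed with this list (permutation p adjusted 0.1175, 0.0767 and 0.0814). Without the same mice their r with the large-neuron genes was between 0.36 and 0.49. Those mice lay farthest from the median list level, so leaving them out narrows the range. The drop in r therefore cannot show that the relation rests on them. With the large-neuron genes, Calb1 had r = 0.30 (rho = 0.17), Calb2 r = 0.58 (rho = 0.52) and Pvalb r = -0.57 (rho = -0.63). None of these passed (permutation p of r adjusted 0.463, 0.166 and 0.1795).

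Among 7620 protein-coding genes of at least 5 FPKM, centred on the group means, the pattern most like that of Nefl over the 12 mice was Ywhab, which encodes a 14-3-3 protein (r = 0.997). For Nefm and Nefh it was Fstl1, which encodes a secreted follistatin-like protein (r = 0.988 and 0.992), and for Prph it was Trnp1, a nuclear protein gene (r = 0.987). These patterns were widely shared: r exceeded 0.9 with 476 genes for Nefl, 424 for Nefm, 423 for Nefh and 442 for Prph. The other members had few such partners. Ina had 1, the synaptic vesicle gene Sv2a (r = 0.957), Calb1 had 1, Elac1, a tRNA-processing enzyme gene (r = 0.920), and Calb2 had 3, led by the mitochondrial ribosome gene Mrps7 (r = 0.938). For Pvalb the 3 were Eno3, Actn3 and Myh4, encoding the enolase, an alpha-actinin and a myosin heavy chain of muscle (r = 0.932, 0.907 and 0.903).

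The lists of related genes held no member past the adjusted test. Of 16 tested genes of large sensory neurons, 11 had a higher mean in responders, where 50.7% of all genes did, and 5 had a lower mean. Of the 11, 3 had an unadjusted p under 0.05, where 3.23% of all genes were higher at that level. The log2 fold changes of the list ran from -0.95 to 0.72, with a median of 0.13. The genes named next are the 3 of lowest p, and all 3 were higher in responders. Ntrk3, the receptor of neurotrophin-3, stood at 8.38 ± 3.78 FPKM in responders and 4.39 ± 1.06 FPKM in non-responders (limma log2 fold change 0.72, adjusted p = 0.602; SD over n = 6 per group), with 4 responders above every non-responder. Etv1, a transcription factor of proprioceptive neurons, stood at 14.4 ± 0.621 FPKM in responders and 10.7 ± 2.56 FPKM in non-responders (0.43, limma adjusted p = 0.512). Scn8a, the sodium channel of nodes of Ranvier, averaged 30.0 ± 6.45 FPKM in responders and 22.2 ± 3.32 FPKM in non-responders (0.40, limma adjusted p = 0.602).

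The 13 tested small-neuron genes had a median of 0.01, with 7 higher and 6 lower in responders. The 2 genes of lowest p in it encode ion channels and had differences of opposite sign. Trpm8, the cold channel, stood at 2.92 ± 1.45 FPKM in responders and 6.04 ± 1.81 FPKM in non-responders (limma log2 fold change -0.88, adjusted p = 0.445; SD over n = 6 per group). Trpa1, the channel for irritants, stood at 12.3 ± 2.49 FPKM in responders and 8.18 ± 1.87 FPKM in non-responders (0.55, limma adjusted p = 0.482), with 5 responders above every non-responder.

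Among genes that move, phosphorylate or break down neurofilaments, 13 of 21 had a higher mean in responders (median 0.05), and the 19 genes of neuronal microtubules had 12 higher (median 0.05). In the first list Cdk5, a kinase of neurofilament tails, was low at 0.946 ± 0.416 FPKM in responders and 2.41 ± 1.48 FPKM in non-responders (limma log2 fold change -0.72, adjusted p = 0.640; SD over n = 6 per group). In the second Map2, a dendritic microtubule-associated protein gene, averaged 31.9 ± 3.43 FPKM in responders and 25.4 ± 5.55 FPKM in non-responders (0.34, limma adjusted p = 0.640).

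Of 28 other EF-hand genes, 15 had a higher mean in responders, against 50.7% of all genes. At an unadjusted p under 0.05, 3 were higher and 2 lower (median 0.04), against 3.23% and 4.17% of all genes. The S100 family gene S100a1 averaged 34.2 ± 7.16 FPKM in responders and 45.4 ± 9.31 FPKM in non-responders (limma log2 fold change -0.40, adjusted p = 0.640; SD over n = 6 per group). Oncomodulin, Ocm, the nearest relative of parvalbumin, was listed at 0 in all 12 mice.

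The 13 other intermediate filament and linker genes had a median of -0.05, with 8 lower in responders, where 6995 of all 14203 genes were. Gfap, the filament gene of reactive satellite glia and astrocytes, averaged 58.9 ± 15.8 FPKM in responders and 109 ± 49.8 FPKM in non-responders (limma log2 fold change -0.79, adjusted p = 0.640; SD over n = 6 per group). Vim, the filament gene of glia and fibroblasts, averaged 140.2 ± 15.0 FPKM in responders and 163 ± 23.0 FPKM in non-responders (-0.21, limma adjusted p = 0.676).

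**Figure D5:**
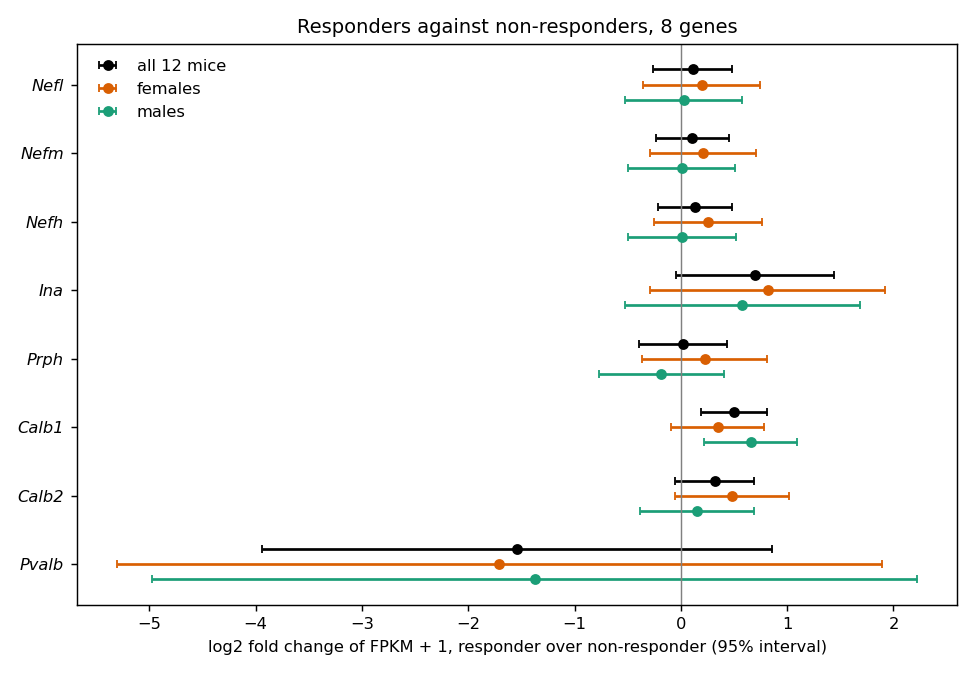
Log2 fold change of FPKM + 1, responder over non-responder, with 95% intervals from limma, for each of the 8 genes over all 12 mice (black), in females (orange) and in males (green). The interval over all mice leaves out 0 for Calb1 only, from 0.19 to 0.81, and is widest for Pvalb, from -3.94 to 0.86.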

How the data were processed

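Poly A RNA of trigeminal ganglia from 12 mice was sequenced with paired 150 bp reads on an Illumina HiSeq. The authors deposited 1 table of values per Ensembl gene and mouse, taken here as FPKM. The tools were STAR 2.6.0a and StringTie 1.3.5, with the GRCm38 build, per the submitters' processing notes. The sources used here name no annotation release or filter. Depth was estimated from the step of the values in 11332 single-exon genes, no counts were used, and 0 columns belonged to other samples.

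Log2(FPKM + 1) was fitted with limma 3.58.1 in R 4.3.3 (9 residual and 2.23 prior degrees of freedom) over 14203 genes. Sex was a covariate, and 4 cell means gave the effects by sex. The p values are 2-sided, with Benjamini-Hochberg adjustment over all genes and a threshold of 0.05. Fold changes on the log2(FPKM + 1) scale understate changes of low genes. Gene ratios were tested over all 924 splits of the mice, and correlations with 100000 resamples (NumPy 2.4.6, SciPy 1.17.1). Symbols and transcripts came from GENCODE M21, and near copies were searched with blastn 2.17.0 (90% identity, 200 bases). The fit was tested on simulated data.

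The members, the 14 gene lists and the tests were chosen with earlier results of these data known, and the 64 relations with list levels were chosen after the members' values were seen. Named are all members, the 3 genes of lowest p in a list at most, and the 3 genes most like each member. The genes Slc6a5, Slc32a1, Gad2, Pou1f1, Lhx3, Gh, Ocm, Mapk3 and Lmna were named after their values were seen. A few named genes and sequences are left out of the text. Each mouse is its own library, and p values measure the spread between these mice. Alternatives were another pseudocount, no filter, another scaling, centring on neuronal genes, other limma options, averaging by description number, a replicate block and leaving mice out. After the data were seen, leaving out responders 1 and 3, and responder 1 with non-responder 4, was added.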

Additional observations from a re-analysis of the deposited data

Results flagged for a closer look

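In each group of 6 mice, a value was singled out when the gap between the extreme mouse and its nearest neighbour exceeded 0.625 of the group's range, Dixon's critical value for 6 samples. Chance singles out about 1 in 20 groups. Of 24 values by group checked, 3 were singled out, all of them in responders. Nefl was low in responder 1, at 898 FPKM, where the next responder stood at 1502 FPKM. Nefm was low in the same library, at 785 FPKM, where the next responder stood at 1260.3 FPKM. Responder 1 had the fewest implied fragments and the highest pituitary levels, and Gh took 17.7% of its summed FPKM. Ina was high in responder 3, at 25.7 FPKM, where the next responder stood at 11.6 FPKM. The part of other tissues in these values was not tested.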

How the results depend on the processing

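No member passed the adjusted limma test under any alternative run (0 of 704 refitted fold changes), and 659 kept their direction while 45 changed sign. Centring on neuronal genes, which moves the median of all genes to -0.15 for the response and -0.19 for sex, turned the response values of Nefl to -0.044, Nefm to -0.0448, Nefh to -0.0251 and Prph to -0.135. The same centring turned the sex values (female minus male) of Nefh to -0.00383, Prph to -0.0214 and Calb1 to -0.156. It also turned the correlations of Nefl, Nefm, Nefh and Prph with Calb1 to -0.143, -0.184, -0.210 and -0.440, of Prph with Calb2 to -0.253 and of Calb2 with Pvalb to 0.0438. Median-of-ratios scaling turned Nefm and Nefh in males to -0.00609 and -0.0098, and the Ina to Nefl ratio turned to -0.0642 without responders 1 and 3. Pvalb was at -0.963 with mouse weights and at -2.33 without responders 1 and 3, against -1.54. Over all genes, the count called for the response in all mice was 3, and it was 5 with centring, 1 with mice averaged by description number and 1 with a replicate block. It was 4 in males with a pseudocount of 0.1, against 2, and 5 in females without a filter, against 1. Leaving out 1 mouse at a time gave 2 to 6 calls for all mice, 1 to 5 in males, 1 to 5 in females and 0 to 3 for the difference between the sexes, against 0. The same step gave response values in all mice of 0.0355 to 0.251 for Nefl, 0.0412 to 0.238 for Nefm, 0.0701 to 0.256 for Nefh, -0.0635 to 0.169 for Prph, 0.248 to 0.461 for Calb2 and -2.06 to -0.833 for Pvalb. In males it gave -0.164 to 0.321 for Nefl, -0.168 to 0.274 for Nefm, -0.157 to 0.262 for Nefh, -0.422 to 0.101 for Prph, -0.041 to 0.439 for Calb2 and -2.34 to 0.259 for Pvalb. For sex it gave -0.0700 to 0.404 for Ina, -0.0767 to 0.0924 for Calb1 and -0.457 to 0.774 for Pvalb. For the response in females minus that in males it gave -0.126 to 0.358 for Nefl, -0.0652 to 0.377 for Nefm, -0.00995 to 0.409 for Nefh, -0.453 to 0.613 for Ina and -1.97 to 0.659 for Pvalb. The log2 ratios to Nefl were -0.0127 to 0.0169 for Nefm and -0.000423 to 0.0361 for Nefh. The cause of these changes was not tested. Mice with the same replicate number did not deviate together (correlations between -0.15 and 0.21, and 0 of 6 numbers best matched by their own), so the replicate block pairs mice by number only.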

Other observations

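Genes of satellite glia and of brain glia had mostly lower means in responders, and 0 of them passed the adjusted test. Of 10 satellite glial genes, 8 were lower (median log2 fold change -0.13), and Slc1a3, a glutamate transporter gene, averaged 4.13 ± 0.519 FPKM in responders and 6.61 ± 1.92 FPKM in non-responders (SD, n = 6 per group; -0.53, limma adjusted p = 0.510). All 8 tested genes of brain glia were lower (median -0.65), where 6995 of all 14203 genes tested were. At an unadjusted p under 0.05 by limma, 2 genes of brain glia and 1 of satellite glia were lower, against 4.17% of all genes. Tmem119, a microglial gene, averaged 1.65 ± 0.718 FPKM in responders and 3.81 ± 1.51 FPKM in non-responders (-0.84, limma adjusted p = 0.445). The myelin genes Gldn, at 9.49 ± 2.78 FPKM in responders and 16.2 ± 2.47 FPKM in non-responders, and Fa2h, at 36.5 ± 7.78 FPKM in responders and 53.8 ± 9.09 FPKM in non-responders, had log2 fold changes of -0.74 and -0.56 (limma adjusted p = 0.308 and 0.371).

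Mapk3, which encodes the kinase ERK1, fell into separate ranges that did not follow the groups. It stood at 224 and 469 FPKM in responders 1 and 5 and at 82.3 to 94.3 FPKM in the other responders. In non-responders 1, 3 and 5 it stood at 338, 321 and 371 FPKM, and in non-responders 2, 4 and 6 at 97.4, 81.1 and 112 FPKM. Lmna, the lamin A gene, stood at 36.4 to 52.3 FPKM in responders and at 4.22 FPKM in non-responder 3, against 26.6 to 53.4 FPKM in the other non-responders.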
